A study of Rattus norvegicus with 6 samples.

Results

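The genes described here are the 7 subunits of respiratory complex I that the mitochondrial genome of the rat encodes, namely Mt-nd1, Mt-nd2, Mt-nd3, Mt-nd4, Mt-nd4l, Mt-nd5 and Mt-nd6. They were taken by Ensembl identifier from the 23487 genes of the deposited count table, and all 7 passed the filter on low counts, which kept 13644 genes for testing. The identifiers are ENSRNOG00000030644, ENSRNOG00000031033, ENSRNOG00000033615, ENSRNOG00000029707, ENSRNOG00000031053, ENSRNOG00000029971 and ENSRNOG00000029042, in the same order. Kidney RNA came from 3 rats after sub-total nephrectomy (SNx) and 3 rats without an operation (NoOp). After SNx the remnant that is left in place scars and loses function, as in chronic kidney disease. According to the study's methods the animals were male Wistar Han rats. For SNx, part of the right kidney was resected and the left kidney was taken out later. Each SNx animal was killed once proteinuria or serum creatinine passed a preset increase over controls. The time after surgery was therefore not the same for all. No age was given. Since the controls had no operation, loss of tissue and surgery as such cannot be told apart.

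Complex I, the NADH dehydrogenase, is the first and largest enzyme of the respiratory chain. It passes electrons from NADH to ubiquinone and pumps protons across the inner mitochondrial membrane. Its matrix arm is built from subunits that nuclear genes encode, while the core of its membrane arm consists of the mitochondrial-encoded proteins. Mitochondrial DNA is read as long transcripts from both strands that are cut into single messages. Mt-nd6 is the only member on the light strand, and all other members come from the heavy-strand transcript, where Mt-nd4l and Mt-nd4 share 1 message and overlap. Kidney tubules, the proximal tubule and the thick ascending limb above all, are rich in mitochondria because they reabsorb salt and solutes by active transport.

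The libraries were depleted of ribosomal RNA and held between 9572955 and 13140864 estimated counts, with every SNx library smaller than every NoOp library. SNx replicate 3 stood apart from the other SNx libraries in the results below, so values without it are given where they differ. The titles number the libraries, and these numbers form 2 ranges. NoOp replicate 1 has its number in the first range together with SNx replicates 1 and 2, and the other libraries (NoOp replicates 2 and 3, SNx replicate 3) have theirs in the second. The study's methods give RNA integrity only as a range over all samples and not per library. That range was wide and reached very low values. Its part in the levels, shares and ratios below was not tested. Neither the tissue label nor the cell types could be checked against marker genes, because neither the deposited files nor the reference tables pair identifiers with symbols.

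None of the mitochondrial-encoded complex I genes passed the test between SNx and NoOp. The count was 0 of 7 at a limma adjusted p under 0.05, while 35.8% of all genes tested passed, 16.6% lower and 19.2% higher in SNx. At an adjusted p under 0.05, the quasi-likelihood test of edgeR called 4866 genes and DESeq2 5071, with 0 of 7 members in each. Counts of members at an unadjusted p under 0.05 were also 0 of 7 with limma, edgeR and DESeq2. The share of all genes at that looser threshold was not computed. What the members showed was a wide spread among the SNx rats. In CPM, defined below, SNx replicate 3 was the highest of the 6 libraries in all 7 genes and SNx replicate 2 the lowest. The NoOp libraries therefore lay inside the SNx range. The groups thus overlapped in 7 of 7 members, whereas 51.6% of all genes had no overlap, 24.5% with SNx lower and 27.1% with SNx higher. The median log2 fold change was -0.17 over the members and 0.01 over all genes tested.

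Levels are given as CPM, the counts relative to a library size that was scaled with TMM, the trimmed-mean method of edgeR. These are not divided by gene length, so they compare libraries and not genes. Fold changes are SNx against NoOp on the log2 scale, and adjusted p-values are from limma on voom-transformed counts with Benjamini-Hochberg adjustment over all genes tested. Values after ± are SDs over 3 libraries.

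Mt-nd2, Mt-nd4 and Mt-nd5 encode the antiporter-like subunits that form the proton channels of the membrane arm. Mt-nd2 had 13552, 10745 and 11828 CPM in NoOp replicates 1, 2 and 3. The SNx libraries, in the same order, had 9307, 6000 and 17342 CPM. Its means were 12042 ± 1416 in NoOp and 10883 ± 5833 in SNx, a log2 fold change of -0.26 (SE 0.38, limma adjusted p = 0.629). SNx replicates 1 and 2 thus lay below all NoOp libraries and SNx replicate 3 above all of them.

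Mt-nd4 had 13353, 10576 and 11914 CPM in the NoOp libraries and 10316, 6599 and 16818 CPM in the SNx libraries. Its log2 fold change was -0.17 (SE 0.34, limma adjusted p = 0.733). Mt-nd5, the last protein-coding gene of the heavy-strand transcript but for cytochrome b, had 3196, 2801 and 3665 CPM in NoOp and 2518, 1623 and 5010 CPM in SNx. The log2 fold change of Mt-nd5 was -0.21 (SE 0.39, limma adjusted p = 0.711). Both genes had the same order of libraries within SNx as Mt-nd2, with 2 SNx libraries below and 1 above the NoOp range.

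Mt-nd1 encodes the subunit at the junction of the arms, next to the site where ubiquinone is reduced. It had 10093, 7879 and 8426 CPM in the NoOp libraries and 7863, 5084 and 12095 CPM in the SNx libraries, or 8799 ± 1153 and 8347 ± 3530. The log2 fold change of Mt-nd1 was -0.14 (SE 0.32, limma adjusted p = 0.763). SNx replicate 1 was level with the lowest NoOp library in this gene, at 7863 against 7879 CPM.

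Mt-nd3, Mt-nd4l and Mt-nd6 encode small subunits that lie between Mt-nd1 and Mt-nd2 in the membrane arm. Mt-nd3 had 1349, 1015 and 1173 CPM in NoOp and 1148, 717 and 1741 CPM in SNx, with a log2 fold change of -0.04 (SE 0.31, limma adjusted p = 0.935). Mt-nd4l had 594, 486 and 597 CPM in NoOp and 326, 209 and 721 CPM in SNx. Its means of 559 ± 63.4 and 419 ± 269 gave a log2 fold change of -0.58 (SE 0.41, limma adjusted p = 0.308), the largest difference among the members. In this gene SNx replicates 1 and 2 lay well below the NoOp libraries, which were within a factor of 1.23 of each other.

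Mt-nd6, the light-strand gene, was sampled by far fewer counts, from 200 to 371 per library. Its levels were 20.4, 21.9 and 27.2 CPM in NoOp and 26.4, 15.5 and 39.2 CPM in SNx, a log2 fold change of 0.09 (SE 0.32, limma adjusted p = 0.842). SNx replicate 1 fell inside the NoOp range here and for Mt-nd3. The libraries were strand-specific, but whether the quantification used the strand is not given in the sources used here. Without it, reads of Mt-nd6 and of the heavy-strand RNA opposite to it cannot be told apart.

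**Figure D1:**
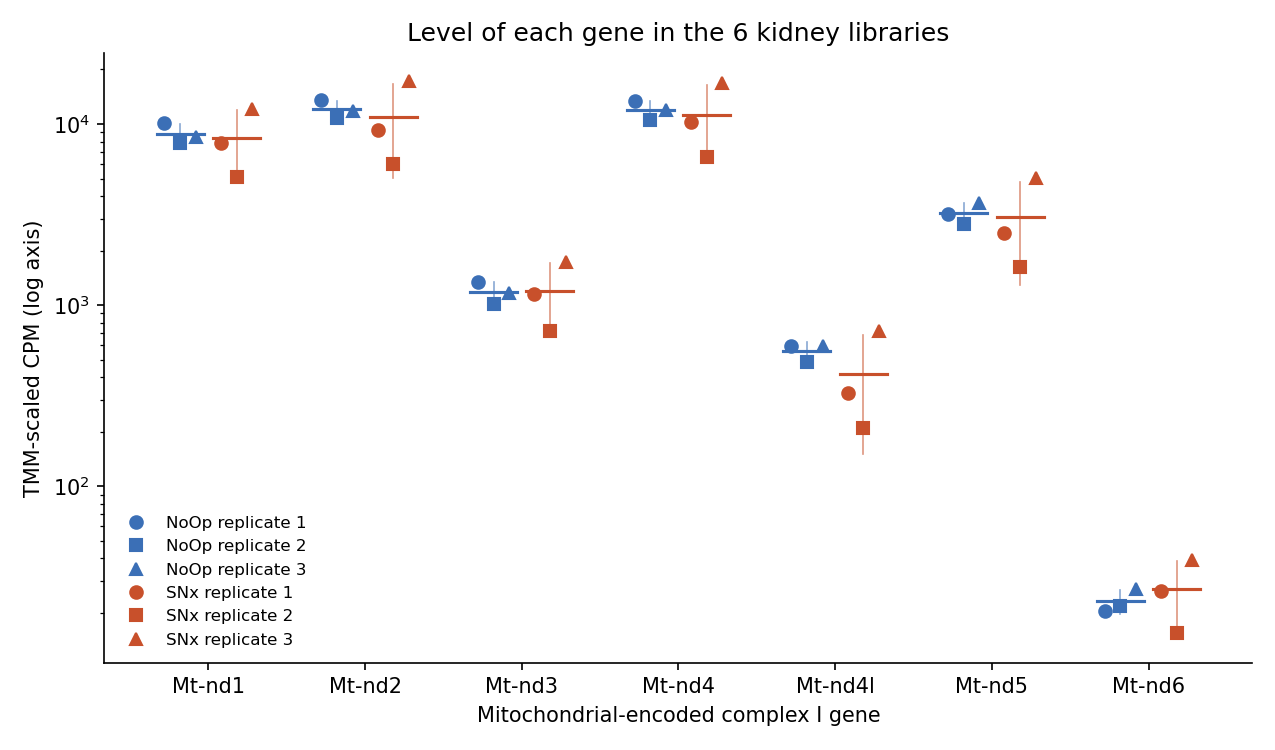
TMM-scaled CPM (log axis) of the 7 genes in each of the 3 NoOp (blue) and 3 SNx (orange) libraries; horizontal bars are group means, vertical lines the SD, and levels are not divided by gene length. In every gene SNx replicate 3 is the highest and SNx replicate 2 the lowest point, with the NoOp libraries between them.

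The intervals of the fold changes were wide. The 95% interval ran from -0.90 to 0.62 for Mt-nd1, from -0.97 to 0.63 for Mt-nd4 and from -1.55 to 0.38 for Mt-nd4l. Expressed as a ratio, the data allowed Mt-nd1 in SNx to lie anywhere between 0.536 and 1.53 times its NoOp level. For Mt-nd6 the interval ran from -0.65 to 0.84. Differences within these bounds were compatible with the data of 3 libraries in each group, so the test does not show that the levels were equal. Scaling changed the direction of some members. When TMM was left out, the log2 fold changes were 0.069 for Mt-nd1, 0.17 for Mt-nd3 and 0.041 for Mt-nd4, and none of the 7 genes passed the threshold. Leaving out TMM also moved the median over all genes tested from 0.01 to 0.24, a shift of 0.23, so relative to that median the members were lower under both scalings, at medians of -0.17 and 0.04. They were not lower than the 100 most abundant genes, whose median with TMM was -0.27.

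**Figure D2:**
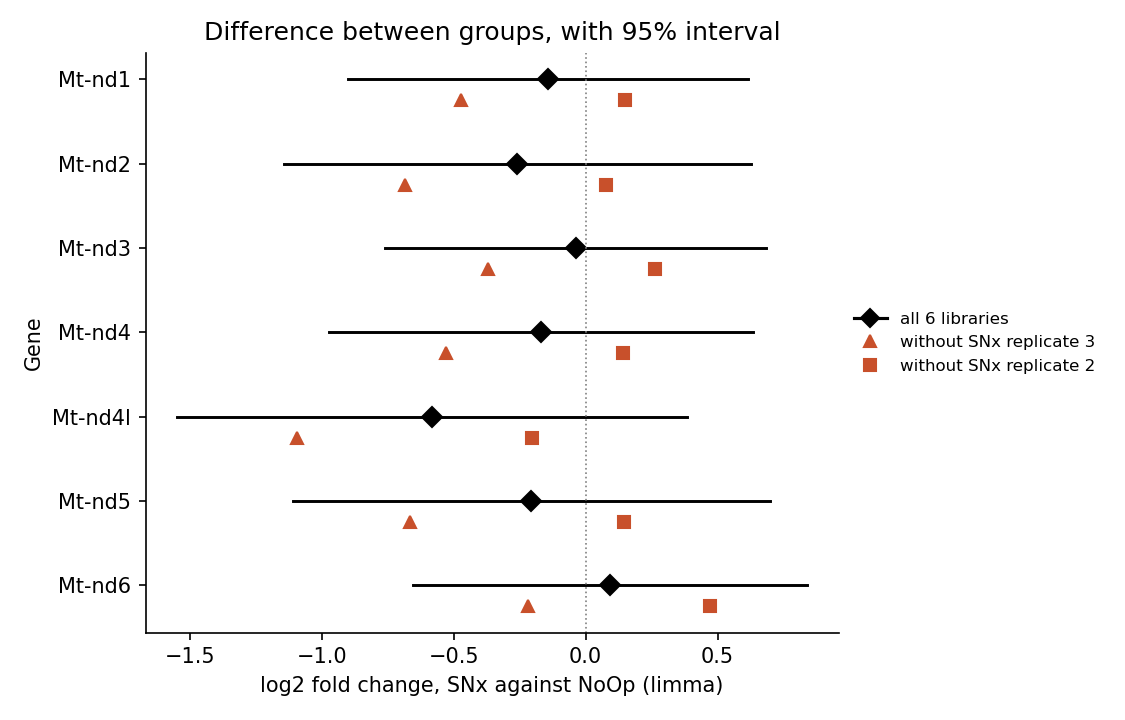
Log2 fold change of each gene, SNx against NoOp, with its 95% interval from limma on all 6 libraries (diamonds and lines) and the estimate without SNx replicate 3 (triangles) or without SNx replicate 2 (squares). All 7 intervals include 0, and leaving out SNx replicate 2 or 3 moves every estimate in opposite directions.

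As a share of the library the 7 genes were abundant in all animals. Together they took 3.73%, 3.22% and 3.50% of the counts in NoOp replicates 1, 2 and 3. In the SNx libraries they took 3.31%, 2.45% and 5.32%. The NoOp mean was 3.48% ± 0.251 and the SNx mean 3.69% ± 1.47 (n = 3 per group), and an exact two-sided permutation test gave p = 0.9, where 0.1 is the smallest that 3 against 3 can give. SNx replicate 3 thus held 2.17 times the share of SNx replicate 2, while NoOp replicate 1 held 1.16 times the share of NoOp replicate 2. Relative to the TMM-scaled library size the SNx mean was 0.26 percentage points lower instead of 0.207 higher, and both differences were smaller than the spread within SNx. The difference was -0.606 percentage points without SNx replicate 3 and 0.829 without SNx replicate 2. As percent of the library total, SNx replicate 3 was again the highest library in each gene. SNx replicate 2 was the lowest except for Mt-nd6, with 0.00187% against 0.00180% in NoOp replicate 1. By this measure SNx replicate 1 lay inside the NoOp range for Mt-nd1 and Mt-nd4. It lay above that range for Mt-nd3 and Mt-nd6 and below it for the other members. In bulk tissue, fewer cells of a mitochondria-rich type and less mitochondrial RNA per cell cannot be told apart.

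The spread within SNx was large for these genes. The SD of log2 CPM over the SNx libraries ranged from 0.63 for Mt-nd1 to 0.91 for Mt-nd4l, with a median of 0.68 over the members. Over the NoOp libraries it ranged from 0.17 to 0.21, with a median of 0.18. SNx replicate 3 exceeded SNx replicate 2 by a factor of 2.38 for Mt-nd1 up to 3.46 for Mt-nd4l, while the highest NoOp library exceeded the lowest by 1.23 to 1.33. Across all genes tested the medians were 0.23 in SNx and 0.18 in NoOp, so the members varied like a typical gene among NoOp rats and more than a typical gene among SNx rats. An SD over SNx smaller than that of any member was found for 88.6% of all genes tested, and for 65% of the 100 most abundant genes, which include 5 of the members. The order with SNx replicate 3 highest and SNx replicate 2 lowest of all 6 libraries held for 158 of 13644 genes (1.16%) and for 10 of the 100 most abundant. These are descriptions, since the pattern was noticed in the same libraries and the 7 genes, which are cut from shared transcripts, are not independent.

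**Figure D3:**
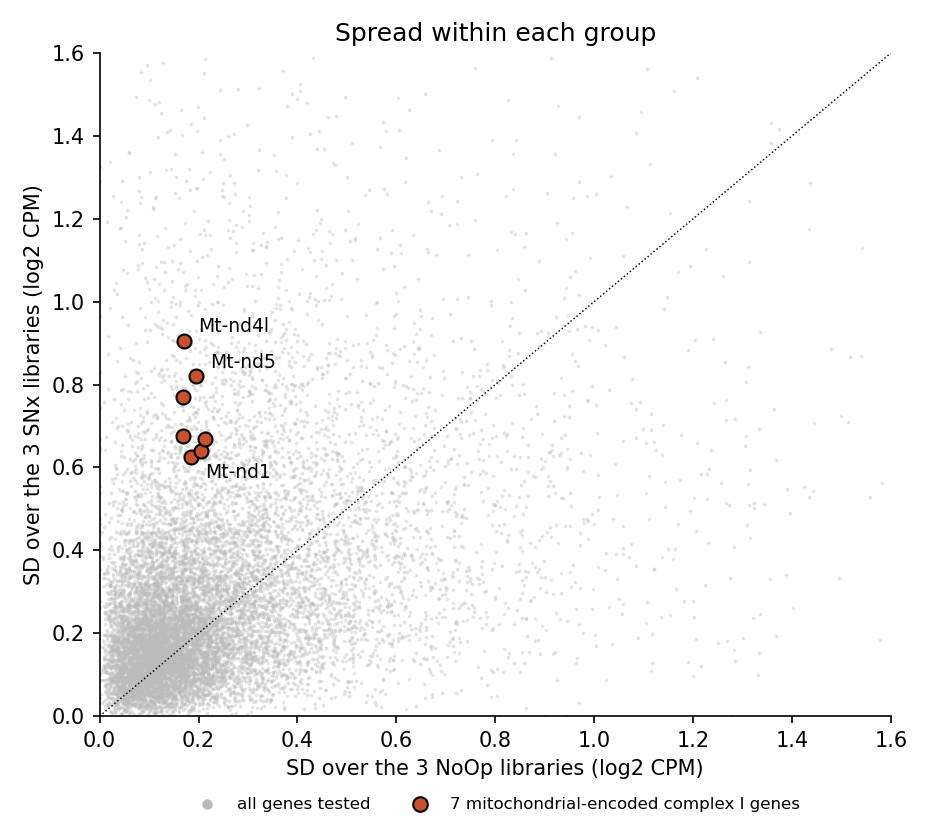
SD of log2 CPM over the 3 NoOp libraries (horizontal) and over the 3 SNx libraries (vertical) for all genes tested (grey) and the 7 members (orange); the dotted line marks equal SD and 166 genes lie beyond the axes. The members sit at 0.17 to 0.21 on the NoOp axis and at 0.63 to 0.91 on the SNx axis.

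The result for single members turned on which SNx animals were compared. Without SNx replicate 3 all 7 log2 fold changes were negative, and Mt-nd4l passed the threshold at -1.09 (limma adjusted p = 0.00692). Of all genes tested without that library, 41.2% passed, 18.3% lower in SNx. The other members ranged from -0.68 for Mt-nd2 to -0.22 for Mt-nd6 and did not pass. Without SNx replicate 2 the log2 fold changes were positive for all members except Mt-nd4l, from 0.078 for Mt-nd2 to 0.47 for Mt-nd6, with Mt-nd4l at -0.20 and none past the threshold.

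The ranges of library numbers divide the SNx libraries in the same way, since SNx replicate 3 is the only SNx library of the second range. The values by range are therefore not a separate finding. Within the first range, with 2 SNx libraries and 1 NoOp library, the mean log2 CPM was lower in SNx for 7 of 7 genes, from -1.19 for Mt-nd4l to -0.016 for Mt-nd6, with Mt-nd1 at -0.67. Within the second range, with 1 SNx library and 2 NoOp libraries, it was higher in SNx for 7 of 7 genes, by 0.42 for Mt-nd4l to 0.68 for Mt-nd6. That direction was fixed in advance, because SNx replicate 3 was the highest library in every member. How many of all genes tested went the same way within a range was not computed. What the title numbers stand for is not stated, and each range holds only 1 library of a group, so neither difference could be tested within a range. With the range as a term in the limma model none of the members passed the threshold, and Mt-nd3 had a log2 fold change of 0.038.

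The relative amounts of the 7 messages were examined next, as shares of their summed counts. Mt-nd4 made up 31.7%, 31.5% and 31.7% in NoOp replicates 1, 2 and 3. In the SNx libraries it made up 32.7%, 32.6% and 31.3%, a narrow range for a gene whose level differed 2.55-fold between SNx replicates 3 and 2. The share of Mt-nd5 had a mean of 8.56% ± 1.09 for NoOp and of 8.44% ± 0.759 for SNx, with n = 3 per group (exact two-sided permutation p = 0.9). Mt-nd1, Mt-nd2, Mt-nd4 and Mt-nd5 had shares that overlapped between the groups. The remaining 3 of 7 members had shares without overlap, where 21.4% of all genes had none when expressed per summed count of the members. This is not a like comparison, because the members are part of that sum and the other genes are not. The ratios of gene pairs, given below, have a background formed in the same way.

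Mt-nd4l had a lower share of the members' counts in every SNx library than in any NoOp library. It took 1.41%, 1.45% and 1.59% of the members' counts in NoOp and 1.04%, 1.03% and 1.34% in SNx. The difference between group means was -0.345 percentage points (exact two-sided permutation p = 0.1, the smallest possible). The exact 95% binomial (Clopper-Pearson) intervals of the closest libraries were 1.3744% to 1.4448% in NoOp replicate 1 and 1.3102% to 1.3737% in SNx replicate 3, and did not overlap by a small margin. Such intervals cover counting error only.

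Mt-nd3 went the other way, with 3.20%, 3.03% and 3.12% of the members' counts in NoOp and 3.65%, 3.54% and 3.24% in SNx (exact two-sided permutation p = 0.1). The closest libraries, NoOp replicate 1 at 3.15% to 3.25% and SNx replicate 3 at 3.19% to 3.29%, had Clopper-Pearson intervals that overlapped. The light-strand gene Mt-nd6 had 0.0484%, 0.0654% and 0.0722% in NoOp and 0.0837%, 0.0763% and 0.0729% in SNx (exact two-sided permutation p = 0.1). For Mt-nd6 the interval of NoOp replicate 3, 0.0641% to 0.0811%, held the values of SNx replicates 2 and 3, so these libraries were not distinguishable at this depth.

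**Figure D4:**
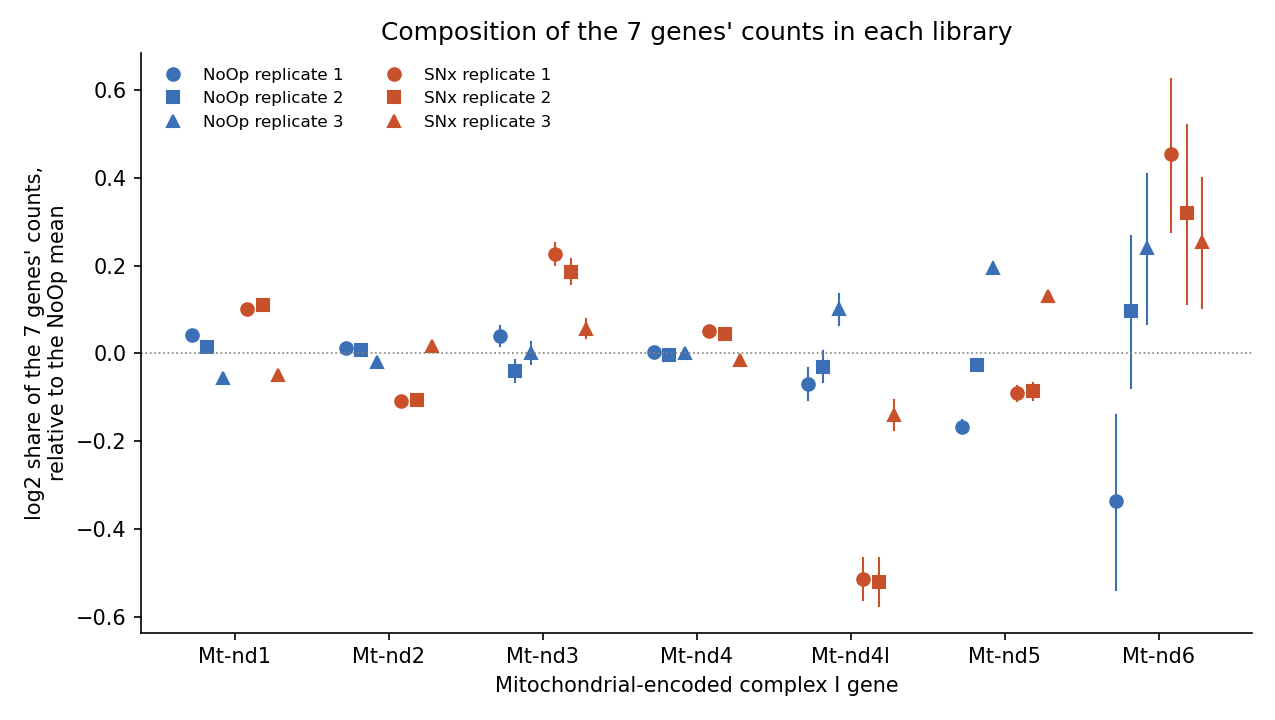
Share of each gene in the summed counts of the 7 members, as log2 relative to the NoOp mean, for each library with its exact 95% binomial interval (vertical lines). SNx replicates 1 and 2 lie together and lowest for Mt-nd4l and highest for Mt-nd3, while SNx replicate 3 lies nearer to the NoOp libraries.

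Mt-nd4l and Mt-nd4 share a message, so their ratio was examined, after the values had been seen. There were 4.45, 4.59 and 5.01 counts of Mt-nd4l per 100 counts of Mt-nd4 in NoOp replicates 1, 2 and 3. In the SNx libraries there were 3.16, 3.16 and 4.29. The log2 ratio was lower in SNx by a mean difference of -0.42 (exact two-sided permutation p = 0.1). In the authors' normalized table, which the study's methods describe as length scaled, the values were 4.12, 4.73 and 4.89 in NoOp and 3.17, 3.28 and 4.44 in SNx, so SNx replicate 3 then lay above NoOp replicate 1 and the groups overlapped (difference -0.35, exact permutation p = 0.2). How the quantification divides reads between genes that overlap is uncertain for this pair.

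For Mt-nd3 there were 10.1, 9.60 and 9.85 counts per 100 of Mt-nd4 in NoOp and 11.1, 10.9 and 10.4 in SNx, a difference of 0.13 on the log2 scale (exact two-sided permutation p = 0.1). This order held in the normalized table, with 9.51, 9.62 and 9.63 in NoOp and 11.2, 11.4 and 10.7 in SNx, a log2 difference of 0.21. Within the first and second range of library numbers, the log2 ratio of Mt-nd3 to Mt-nd4 was higher in SNx by 0.12 and 0.09. That of Mt-nd4 to Mt-nd4l was higher by 0.49 and 0.16. These directions were fixed in advance, because neither ratio overlapped between the groups in the counts. Only the sizes of the differences are therefore informative.

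Among all pairs of the 7 members, 9 of 21 (42.9%) had ratios that did not overlap between SNx and NoOp, 5 of them with Mt-nd4l and 4 with Mt-nd3, where the pair of both genes counts under each. The pair of Mt-nd4 and Mt-nd6 was the only one with neither gene. The share over all pairs of genes tested was 54.4%, and 70.6% over pairs of the 100 most abundant genes. Without SNx replicate 3, 16 of 21 member pairs (76.2%) had no overlap, against 66.3% of all pairs and 86.1% of pairs of the 100 most abundant genes. The share among the members was thus below both background shares with all 6 libraries, and between them without that library. Of the 15 pairs that the normalized table also holds, 7 had no overlap in the counts and 5 in the normalized table. The share over all pairs of genes was not computed for the normalized table, so the 5 pairs cannot be set against it. Pairs that share a gene are not independent.

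Libraries were also compared by the composition of the 7 genes, as the root mean square difference of their log2 shares. SNx replicates 1 and 2 were the closest of all pairs at 0.05, although the level of the 7 genes differed between them. SNx replicate 3 lay at 0.10 from both NoOp replicates 2 and 3, at 0.25 from NoOp replicate 1, and at 0.21 and 0.19 from SNx replicates 1 and 2. The distances among NoOp libraries were 0.18, 0.27 and 0.12. Each of the 7 genes has the same weight in this distance, also Mt-nd6 with its few counts. Mt-nd6 had 210 counts in NoOp replicate 1, a share of 0.0484% against 0.0729% in SNx replicate 3. Distances to NoOp replicate 1 thus depend on this sparsely counted gene, and its part was not separated. In composition, therefore, SNx replicate 3 stood nearer to NoOp replicates 2 and 3 than to the other SNx animals or NoOp replicate 1. NoOp replicates 2 and 3 are also the libraries of its range of title numbers, and the part of that range was not tested.

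The genes with a pattern most like that of the members were looked for among 12488 other genes, by the root mean square distance between log2 CPM profiles centred on their means over the 6 libraries. The 5 nearest lay at 0.08 to 0.13, against a median of 0.52 over all genes compared. The members themselves lay at 0.05 for Mt-nd4 to 0.23 for Mt-nd4l from their common mean, so these 5 genes lay within the range of the members' own distances. The nearest was ENSRNOG00000031979, with 18028, 13953 and 16070 CPM in NoOp and 12514, 8556 and 20726 CPM in SNx. The second, ENSRNOG00000034234, was the most abundant gene of the table, and the other 3 ranked 2, 128 and 3 by mean count. Neither the deposited files nor the reference tables pair these identifiers with symbols. In all 5 genes SNx replicate 3 was the highest library and SNx replicate 2 the lowest, as in the members. For the same reason the nuclear-encoded subunits of complex I, its assembly factors and the mitochondrial RNA machinery were not analysed here. The other mitochondrial messages were not analysed as a set. Whether any of the 5 nearest genes is among them was not established.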

How the data were processed

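Kidney RNA of 3 SNx and 3 NoOp rats was analysed, grouped by the treatment label and numbered within groups in order of deposition, since the labels carry no replicate numbers. The labels do not say that the libraries came from separate animals, while the study's methods name 3 rats in each group. Per the labels, the authors sequenced paired-end, strand-specific libraries depleted of ribosomal RNA (although the molecule is entered as polyA RNA), and their processing notes name Salmon, limma and rn6. In the deposited raw table, values are estimated counts, written by the authors in whole numbers for each gene. The authors' deposited normalized table holds log2 CPM after tximport length scaling and voom, and it lists 6 of the 7 members, without Mt-nd6. Versions are not given in the sources used here. The 12 single-library files held the same values as the series tables.

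Low counts were removed with filterByExpr (edgeR 4.0.16, minimum count 10, minimum total 15). TMM factors were computed, and voom with limma 3.58.1 (R 4.3.3) was run on a design of group alone, since the study names these tools. Calls were made at a Benjamini-Hochberg adjusted p under 0.05. Shares and ratios were compared with exact two-sided permutation tests over libraries, with 0.5 counts added in ratios. SDs and profiles used log2 CPM with a prior count of 2. The tests were tested on simulated data. The fits were repeated with edgeR's quasi-likelihood test, DESeq2 1.42.0, other scalings, filters and denominators, sample weights, the normalized table, a term for the title numbers and leaving out each library. All 7 members are named, and for likeness the 5 genes nearest to their mean profile, among genes whose mean log2 CPM was 1 or more, were taken. By that rule a gene without a symbol is counted and not named, so the 2 identifiers given fall outside it and were chosen after their values were seen. Lists planned by symbol could not be matched, with 0 of 23487 identifiers in the reference. A supplementary table of the study does pair identifiers with symbols, but it was at hand only in part, ordered by the authors' p-values, and was not used, since lists matched through it would be chosen by outcome. The members and lists were chosen with earlier results of these data known. Nuclear copies of mitochondrial genes can share reads with the members, which was not analysed here. No reference of the build was used, so coordinates and sequences are not given.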

Additional observations from a re-analysis of the deposited data

How the results depend on the processing

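Of 111 fold changes of the members under other settings, 97 kept their direction and stayed short of the threshold, 13 changed direction and 1 passed. With all 6 libraries, the log2 fold change of Mt-nd3 changed sign with edgeR (0.028), DESeq2 (0.0077), library size alone (0.17) and the title range as a term (0.038), as did Mt-nd1 (0.069) and Mt-nd4 (0.041) with library size alone, a scaling under which the log2 fold change was higher in all 7 members. Leaving out 1 library gave from -0.47 to 0.15 for Mt-nd1, -0.68 to 0.078 for Mt-nd2, -0.37 to 0.26 for Mt-nd3, -0.53 to 0.14 for Mt-nd4, -1.09 to -0.20 for Mt-nd4l, -0.66 to 0.14 for Mt-nd5 and -0.22 to 0.47 for Mt-nd6, in each gene from SNx replicate 3 left out to SNx replicate 2 left out. The members called lower then numbered 0 to 1. Over its 16 other settings the adjusted p of Mt-nd4l ranged from 0.00692 to 0.685.

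The members' share of the library, 0.207 percentage points higher in SNx, was -0.26 with the TMM-scaled size and ran from -0.606 without SNx replicate 3 to 0.829 without SNx replicate 2. The difference in the share of Mt-nd5 ran from -0.606 without NoOp replicate 1 to 0.474 without NoOp replicate 3. Pairs without overlap numbered 9 to 16 with 1 library left out, the highest without SNx replicate 3, and 5 in the normalized table, which holds fewer pairs. The genes called, 4891, ranged from 2857 without NoOp replicate 3 to 5764 without SNx replicate 3, with 3124 without NoOp replicate 2. Other causes were not tested. Ratios to Mt-nd4, pairs and their alternatives were chosen after seeing the data.

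No paired analysis was run, since neither the labels nor the study's methods name pairs of SNx and NoOp rats. The planned gene lists, the share of the members in all mitochondrial messages and division by coding length were not run, for want of identifiers matched in the reference and of lengths, and Mt-nd6 has no value in the normalized table. The spread between SNx animals was similar for Mt-nd6 and for the deeply counted members, and counting intervals of the closest libraries overlapped for the shares of Mt-nd3 and Mt-nd6.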
